A study of Rattus norvegicus with 6 samples.

Results

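Astrocytes clear synaptic glutamate and potassium, and 9 genes for this work or for astrocyte GABA uptake, water passage and gap junctions were examined. The cells were glutamate-injured spinal cord cultures after silencing of galectin-3 (GAL3, gene LGALS3). The 9 genes were chosen by symbol, and all 9 were among the 17648 genes of the expression table. They were SLC1A2, SLC1A3, GLUL, SLC6A11, ATP1B2, KCNJ10, AQP4, GJA1 and GJB6.

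In the spinal cord, glutamate released at synapses is taken up mainly by astrocytes through sodium-driven transporters and is turned into glutamine, which is returned to neurons. The sodium gradient for this uptake is kept by the sodium pump, which also brings potassium into the cell, and inward-rectifier potassium channels let potassium pass across the astrocyte membrane. Gap junctions of connexins join astrocytes into a network through which ions and metabolites spread, and the water channel aquaporin-4 lines the endfeet that contact blood vessels.

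RNA from neurons cultured from the spinal cords of newborn (neonatal) Sprague-Dawley rats was sequenced in 6 libraries, 3 from cells given a control siRNA (Glu + siR-Con) and 3 from cells given GAL3-targeting siRNA (Glu + siR-GAL3). Cultures had received the mitotic inhibitor Ara-C at 0.05 mg/mL 24 h after plating. The injury model was an exposure on day 3 to 10 µM glutamate for 1 h, followed by 16 h in medium without glutamate, and the study's text and design state that all 6 libraries came from glutamate-treated cultures. The source names of the siR-Con libraries also begin with Glu. The treatment field alone gives saline for the siR-Con libraries and glutamate with a GAL3 knockout for the siR-GAL3 libraries, and if it were right, a difference in glutamate treatment could not be told apart from the siRNA. Nothing in the labels says whether the 3 libraries of a group came from separate cultures or animals, so p-values measure only the spread between these libraries, which may be technical. The authors had also corrected the values within groups, so this spread may differ from that of the libraries as sequenced.

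The values were linear expression levels per transcript length that the authors had derived from FPKM and corrected for batch and within groups. They are called expression values here. The depth of the libraries is unknown. LGALS3 was 77.4, 54.4 and 62.4 in siR-Con libraries 1 to 3 and -1.64, 32.3 and 18.5 in siR-GAL3 libraries 1 to 3, which did not overlap (log2 fold change -2.91, SE 1.20, limma adjusted p = 0.571). The size rests on siR-GAL3 1, whose value was set to 0 for the logarithm: without it the log2 fold change of LGALS3 was -1.35, and with all libraries and a pseudocount of 0.1 it was -4.03. A value below 0 cannot be an FPKM itself, and no member had one. Exactly equal values divided the libraries into sets: siR-Con 1 and siR-GAL3 1 (set 1) shared 1364 values other than 0, siR-Con 2, siR-Con 3 and siR-GAL3 3 (set 2) shared between 1312 and 1463 in pairs, and siR-GAL3 2 shared at most 264 with any other library. siR-GAL3 2 also stood apart on the first principal component, which held 65.2% of the variance. Among the members, ATP1B2 was affected, with the same value in siR-Con 2 and siR-Con 3.

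The libraries were labelled as neurons, and RNA of glial genes was present as well. GFAP, the intermediate filament of astrocytes, had a mean expression value of 655 in siR-Con and 524 in siR-GAL3 libraries, and MBP, a myelin protein of oligodendrocytes, 656 and 770. The neuronal markers MAP2 (17.4 and 16.5), TUBB3 (4.86 and 4.40) and RBFOX3 (0.396 and 0.369) lay far lower than GFAP and MBP on the same per-length scale. Levels varied widely among glial markers. The astrocyte marker S100B was 81.1 and 77.0, but ALDH1L1, also an astrocyte marker, was 3.58 and 2.85. In the oligodendrocyte lineage OLIG1 was 14.9 and 16.9, and PDGFRA 1.49 and 1.12. By GFAP and S100B, RNA of astrocytes was present at a high level in these cultures. In bulk RNA fewer astrocytes and less RNA per astrocyte cannot be told apart. The cell types that the members' RNA came from were not separated.

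**Figure D1:**
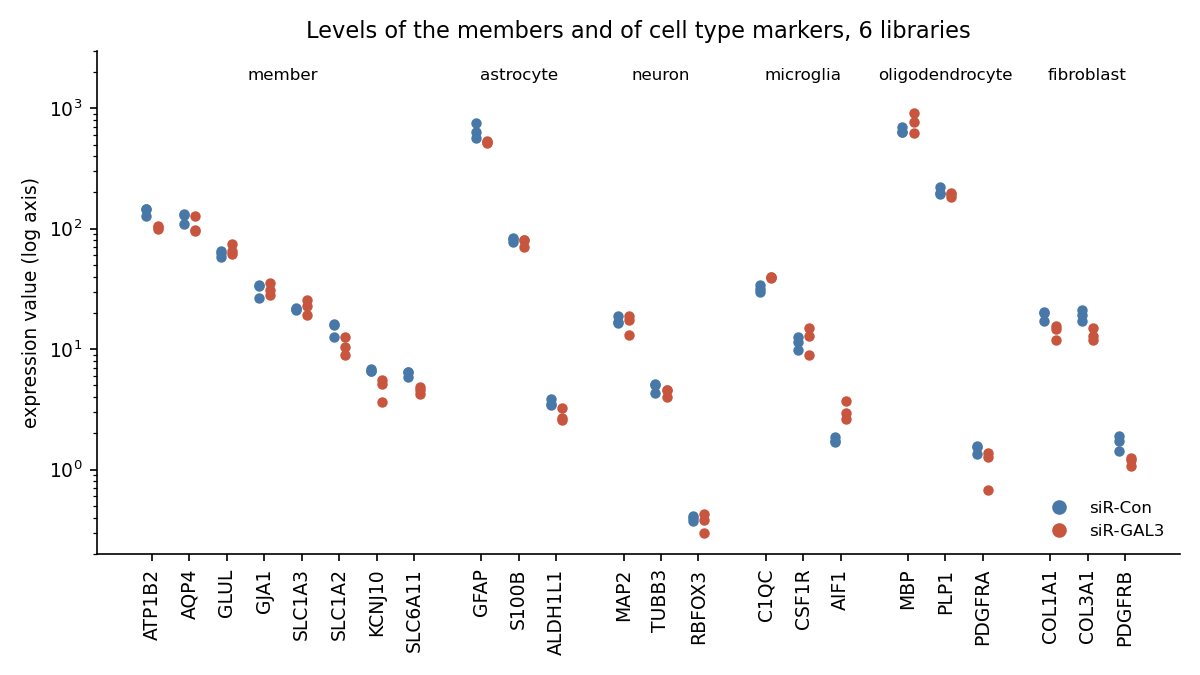
Expression value (log axis) of 8 members and of markers of 5 cell types in each library, with 3 points per group and gene, siR-Con in blue and siR-GAL3 in red. GFAP and MBP lie above every member in all 6 libraries, and the neuronal nuclear marker RBFOX3 lies below 1.

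The members covered a wide range of levels. Over all 6 libraries the mean expression value was 121 for ATP1B2, 116 for AQP4, 64.6 for GLUL, 31.3 for GJA1, 22.0 for SLC1A3, 12.8 for SLC1A2, 5.72 for KCNJ10, 5.43 for SLC6A11 and 0.0442 for GJB6. ATP1B2 and AQP4 were neighbours whose ranges overlapped in both groups, and ATP1B2 was the higher in 5 of 6 libraries. KCNJ10 exceeded SLC6A11 in 5 of 6 libraries, with overlapping ranges in siR-GAL3 only. The other neighbours kept their order in 6 of 6 libraries with no overlap. ATP1B2 and AQP4 were at the 99.8 percentile of the genes in the table and GJB6 at the 21.1 percentile. In these cultures the glutamate transporter SLC1A3 was therefore higher than SLC1A2 in every library, and the connexin GJA1 was far above GJB6.

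Of the 9 members, 8 had a mean expression value of at least 1 and were tested with limma on log2(value + 1) in a fit of 8495 genes. GJB6 was left out by this filter. With galectin-3 silencing, 5 of the 8 had a lower and 3 a higher mean, and the median log2 fold change of the 8 was -0.30, beside -1.19e-05 for all genes tested. SLC1A2, ATP1B2, KCNJ10 and SLC6A11 had an unadjusted p under 0.05, each lower in siR-GAL3, and no member was higher at this level. Among all genes 8.66% passed in either direction, 4.25% lower and 4.41% higher. By direction alone, 4247 of the 8495 genes were higher and 4248 lower. No overlap between the groups, with siR-GAL3 lower, was seen for 3 members, ATP1B2, KCNJ10 and SLC6A11, and for 10.3% of all genes. After Benjamini-Hochberg adjustment over all genes, limma called none of the 8 members and 0% of the genes at 0.05, while 736 genes had an unadjusted p under 0.05. The smallest adjusted p of a member was 0.149. On log2(value + 1), no member reached the study's own criteria, a change beyond 1 with an unadjusted p under 0.05, which 27 genes met (0.318%). On values that were not log-transformed, where the same limit is a difference of 1 expression value and depends on a gene's level, 4 members passed with all 17648 genes in the fit, and 1.79% of the genes did. They were ATP1B2 (difference -36.0), SLC1A2 (-4.26), KCNJ10 (-1.88) and SLC6A11 (-1.73). In the exact two-sided permutation test of 3 against 3 libraries, with 20 assignments, the smallest p the design allows is 0.1.

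**Figure D2:**
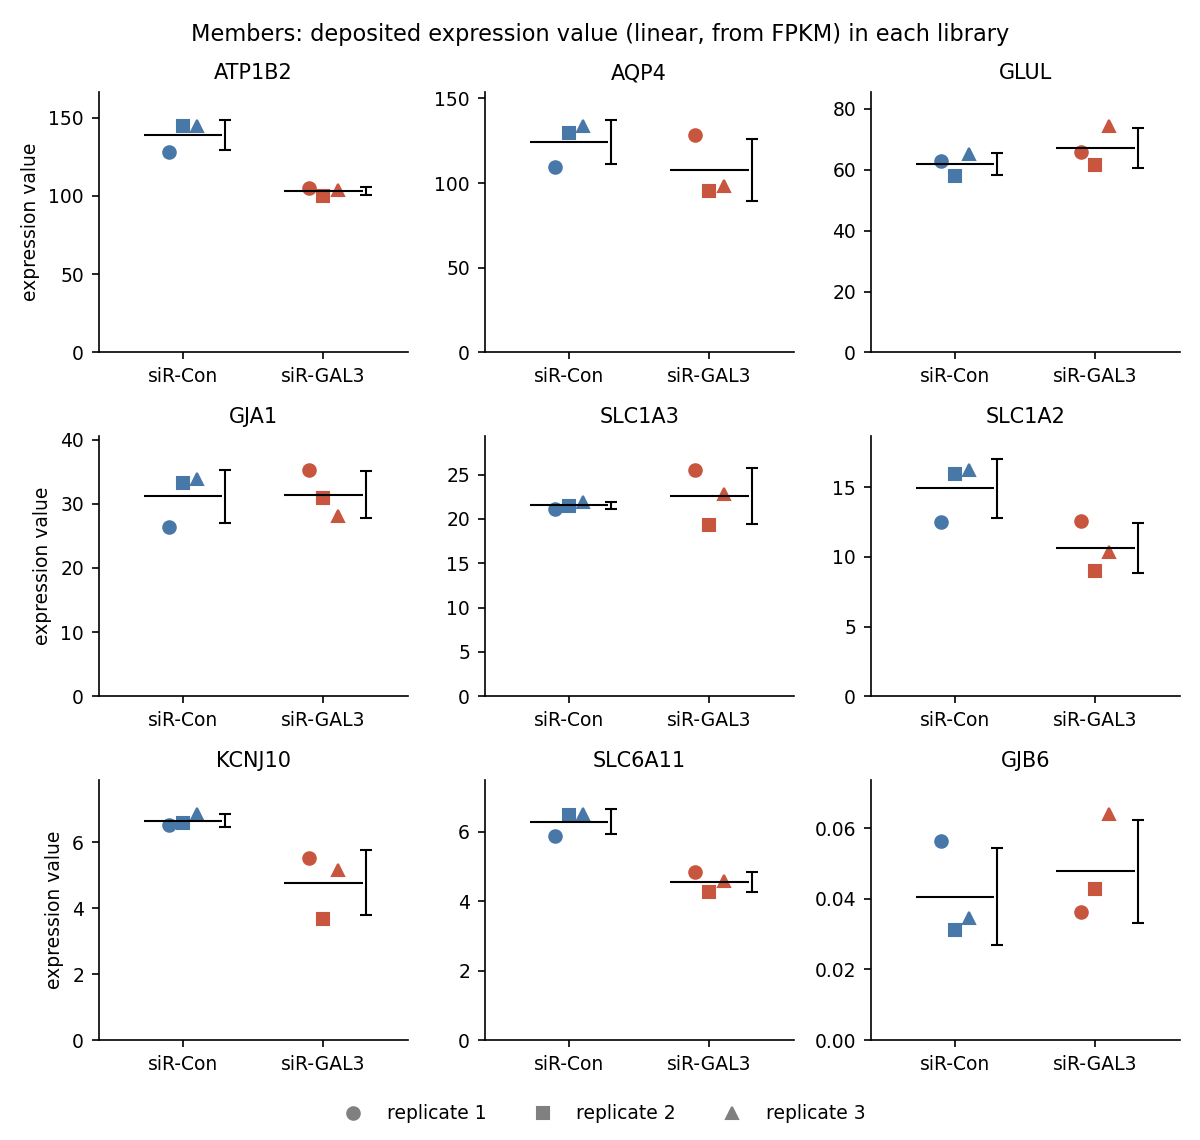
Expression value (linear axis from 0) of each member in the 3 siR-Con (blue) and 3 siR-GAL3 (red) libraries, with the group mean as a line and the SD as an error bar beside it. The siR-GAL3 points lie below all siR-Con points for ATP1B2, KCNJ10 and SLC6A11, and the groups overlap for the other 6 members.

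ATP1B2 encodes the beta-2 subunit of the sodium pump, the subunit typical of astrocytes. Its expression value was 128, 145 and 145 in siR-Con libraries 1 to 3 and 105, 100.2 and 104 in siR-GAL3 libraries 1 to 3. All 3 siR-GAL3 libraries were below all 3 siR-Con libraries and close to each other. The means were 139 ± 9.61 and 103 ± 2.63 (SD, n = 3 each), 25.9% lower in siR-GAL3. The log2 fold change was -0.43 (SE 0.08, 95% interval -0.61 to -0.25), with a limma unadjusted p = 8.48e-04 and adjusted p = 0.149, and the exact permutation p was 0.1. Within library set 1 it was lower by 17.7% and within set 2 by 28.2%, the same direction in both sets that held both groups. Set 1 held 1 library of each group, and set 2 held 2 siR-Con and 1 siR-GAL3 library. The identical value of siR-Con 2 and siR-Con 3 counts as 2 libraries in the SD and the p-values, so the spread may be understated.

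KCNJ10 encodes Kir4.1, the main inward-rectifier potassium channel of astrocytes. The expression value was 6.53, 6.58 and 6.87 in siR-Con and 5.52, 3.67 and 5.15 in siR-GAL3. The groups did not overlap, and siR-GAL3 2 was the lowest of the 6 libraries by a wide margin. The means were 6.66 ± 0.186 and 4.78 ± 0.983 (SD, n = 3 each), 28.2% lower in siR-GAL3. The log2 fold change was -0.42 (SE 0.13, 95% interval -0.72 to -0.12), with a limma adjusted p = 0.430. KCNJ10 was lower by 15.5% within set 1 and by 23.4% within set 2, and without siR-GAL3 2 its log2 fold change was -0.27.

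SLC6A11 encodes GAT-3, a GABA transporter of astrocytes. Its expression value was 5.88, 6.47 and 6.53 in siR-Con and 4.83, 4.27 and 4.58 in siR-GAL3. Again every siR-GAL3 library was below every siR-Con library. The means were 6.29 ± 0.357 and 4.56 ± 0.284 (SD, n = 3 each), 27.5% lower in siR-GAL3. The log2 fold change was -0.39 (SE 0.07, 95% interval -0.57 to -0.22), with a limma adjusted p = 0.167, and SLC6A11 was lower by 17.8% within set 1 and by 29.5% within set 2.

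These 3 members were the ones for which a single library decided the call. Without siR-GAL3 2, the limma adjusted p was 0.0362 for ATP1B2, 0.0462 for KCNJ10 and 0.0300 for SLC6A11, where 1.97% of all genes were called, against 0% with all 6 libraries. When the library set entered the model as a block, the adjusted p values were 0.0624, 0.104 and 0.0675, and no member was called, while 1.25% of all genes were. Because siR-GAL3 2 was alone in its set, that block also took it out of the comparison, so the block fit is not independent of the fit without it. ATP1B2 and SLC6A11 kept an unadjusted p under 0.05 in every fit that held them, including each fit without 1 library. These fits share most of their libraries, and the number of genes passing varied. It ran from 344 of 8495 genes without siR-Con 3 to 1388 without siR-GAL3 2.

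The promoter sequences of these 3 members are shown because the 3 were lower together with no overlap. Each is the 250 bases before the annotated start in the rat assembly GRCr8 (RefSeq), 5′ to 3′ on the strand of the gene, with every GC box (GGGCGG on either strand) in capitals. ATP1B2 is at chr10:54823709-54823958 on the minus strand, KCNJ10 at chr13:87334260-87334509 on the plus strand and SLC6A11 at chr4:148853307-148853556 on the plus strand.
ATP1B2: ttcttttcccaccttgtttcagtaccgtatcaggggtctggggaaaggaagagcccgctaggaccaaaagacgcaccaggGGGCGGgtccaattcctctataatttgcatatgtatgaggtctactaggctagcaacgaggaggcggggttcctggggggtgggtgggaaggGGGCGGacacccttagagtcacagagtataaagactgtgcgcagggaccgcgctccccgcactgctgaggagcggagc
KCNJ10: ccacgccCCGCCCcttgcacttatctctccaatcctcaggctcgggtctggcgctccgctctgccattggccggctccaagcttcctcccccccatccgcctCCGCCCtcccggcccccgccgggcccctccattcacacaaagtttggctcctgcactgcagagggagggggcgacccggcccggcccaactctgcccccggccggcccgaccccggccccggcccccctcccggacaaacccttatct
SLC6A11: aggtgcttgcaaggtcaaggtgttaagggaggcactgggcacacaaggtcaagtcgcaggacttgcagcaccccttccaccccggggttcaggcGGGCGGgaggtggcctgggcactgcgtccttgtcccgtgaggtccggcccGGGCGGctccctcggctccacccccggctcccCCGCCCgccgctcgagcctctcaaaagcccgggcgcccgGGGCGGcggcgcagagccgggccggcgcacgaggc

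The ATP1B2 and KCNJ10 windows held 2 GC boxes each and the SLC6A11 window 4. A GC box was found in 30.5% of 33469 windows of the same length. The share of G and C bases was 58.0% in the ATP1B2 window, 72.4% in that of KCNJ10 and 73.6% in that of SLC6A11. A window of SLC1A2 with 71.2% held no GC box. The matches were not adjusted for this share, so the counts do not set these windows apart from others rich in G and C. The motif was also found before starts of GLUL, AQP4 and GJB6, and was absent from all windows of SLC1A2, SLC1A3 and GJA1. The TATA box (TATAAA, in 12.9% of all windows), the CCAAT box (CCAAT, 34.0%), the NFI half-site (TTGGCA, 4022 windows, whose letters can overlap a CCAAT box on the other strand) and a STAT site (TTCNNNGAA, 7.67%) were searched on both strands as well. The STAT letters were in none of the members' 15 windows, the TATA box was in that of ATP1B2, the CCAAT box was in windows of ATP1B2, KCNJ10, GLUL and AQP4, and the NFI half-site in those of SLC1A3 and in 1 window each of GLUL and GJB6. A match is a description of the letters and says nothing of binding.

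The 2 glutamate transporters are given next. SLC1A2 encodes GLT-1, which carries most glutamate uptake in the mature brain, and had expression values of 12.5, 16.0 and 16.3 in siR-Con and 12.6, 9.01 and 10.4 in siR-GAL3. The groups overlapped in siR-Con 1 and siR-GAL3 1, which share a library set and were nearly equal, and the other siR-GAL3 libraries lay below all siR-Con libraries. The means were 14.9 ± 2.09 and 10.7 ± 1.81 (SD, n = 3 each), 28.6% lower in siR-GAL3. The log2 fold change was -0.45 (SE 0.14, 95% interval -0.79 to -0.11), with a limma unadjusted p = 0.0159 and adjusted p = 0.460. Within set 1 SLC1A2 was higher by 0.632% and within set 2 lower by 35.6%, and without siR-Con 2 or siR-Con 3 the limma unadjusted p was 0.0580 or 0.0600.

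SLC1A3 encodes GLAST, the glutamate transporter that predominates in immature astrocytes and radial glia. Its expression value was 21.2, 21.5 and 21.9 in siR-Con and 25.5, 19.3 and 22.9 in siR-GAL3. The siR-GAL3 libraries lay on both sides of the narrow siR-Con range, with siR-GAL3 2 the lowest. The means were 21.5 ± 0.361 and 22.6 ± 3.11 (SD, n = 3 each), and the log2 fold change of 0.06 (95% interval -0.19 to 0.30) did not pass (limma adjusted p = 0.797). Within the sets SLC1A3 was higher by 20.7% and 5.39%. Without siR-GAL3 2 its log2 fold change was 0.16 with an unadjusted limma p of 0.0284, where 16.3% of all genes had one under 0.05, and the adjusted p was 0.247. With the library set as a block, which also takes siR-GAL3 2 out of the comparison, it was 0.15 with an unadjusted limma p of 0.0476. In that fit 5 members had an unadjusted p under 0.05, SLC1A3 higher and the others lower, as did 13.8% of all genes. Without siR-GAL3 1 the log2 fold change of SLC1A3 was -0.03.

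The ratio of SLC1A2 to SLC1A3 within a library, which cancels any scaling of whole libraries, was 0.591, 0.744 and 0.743 in siR-Con and 0.493, 0.466 and 0.454 in siR-GAL3. Every siR-GAL3 ratio was below every siR-Con ratio, also within library set 1, although SLC1A2 itself was nearly equal there. The mean ratio was 0.693 ± 0.0879 and 0.471 ± 0.0199 (SD, n = 3 each), with an exact permutation p of 0.1. This and the other ratios were chosen after the values of the members had been seen.

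GLUL encodes glutamine synthetase, which converts glutamate to glutamine in astrocytes. Its expression value was 62.7, 58.0 and 65.1 in siR-Con and 65.8, 61.4 and 74.4 in siR-GAL3. The groups overlapped, with siR-GAL3 3 the highest. The means were 62.0 ± 3.61 and 67.2 ± 6.57 (SD, n = 3 each), with a log2 fold change of 0.11 (95% interval -0.11 to 0.33) and a limma adjusted p = 0.634. GLUL was higher by 4.90% within set 1 and 20.7% within set 2, and its log2 fold change was 0.04 without siR-GAL3 3, 0.07 without siR-Con 2 and 0.17 without siR-GAL3 2. The ratio of SLC1A2 to GLUL was 0.199, 0.275 and 0.250 in siR-Con and 0.191, 0.147 and 0.140 in siR-GAL3, without overlap, although the nearest libraries, siR-Con 1 and siR-GAL3 1, were close (exact permutation p = 0.1).

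AQP4 encodes aquaporin-4. Its expression value was 109.5, 129.6 and 134 in siR-Con and 129, 95.6 and 98.3 in siR-GAL3. siR-GAL3 1 lay within the siR-Con range and the other siR-GAL3 libraries below it. The means were 124 ± 12.9 and 108 ± 18.3 (SD, n = 3 each), and the log2 fold change was -0.21 (95% interval -0.54 to 0.11, limma adjusted p = 0.604). The direction was opposite in the library sets, higher by 17.4% within set 1 and lower by 25.3% within set 2. Without siR-GAL3 1 the log2 fold change was -0.35 with an unadjusted limma p of 0.0183, where 14.7% of all genes had one under 0.05, and without siR-GAL3 2 it was -0.14. The ratio of KCNJ10 to AQP4 overlapped between the groups, with means of 0.0539 and 0.0446 (exact permutation p = 0.3).

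GJA1 encodes connexin 43, the main gap junction protein of astrocytes. Its expression value was 26.4, 33.2 and 33.8 in siR-Con and 35.3, 30.9 and 28.1 in siR-GAL3. The groups overlapped throughout, and the libraries of set 1 held both the lowest and the highest value. The means were 31.1 ± 4.12 and 31.4 ± 3.62 (SD, n = 3 each), with a log2 fold change of 0.02 (95% interval -0.28 to 0.31, limma adjusted p = 0.961). It was higher by 33.7% within set 1 and lower by 16.1% within set 2. GJB6 encodes connexin 30, which appears later in astrocyte development, and its expression value was 0.0564, 0.0311 and 0.0345 in siR-Con and 0.0364, 0.0429 and 0.0642 in siR-GAL3. These levels were too low for a comparison.

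**Figure D3:**
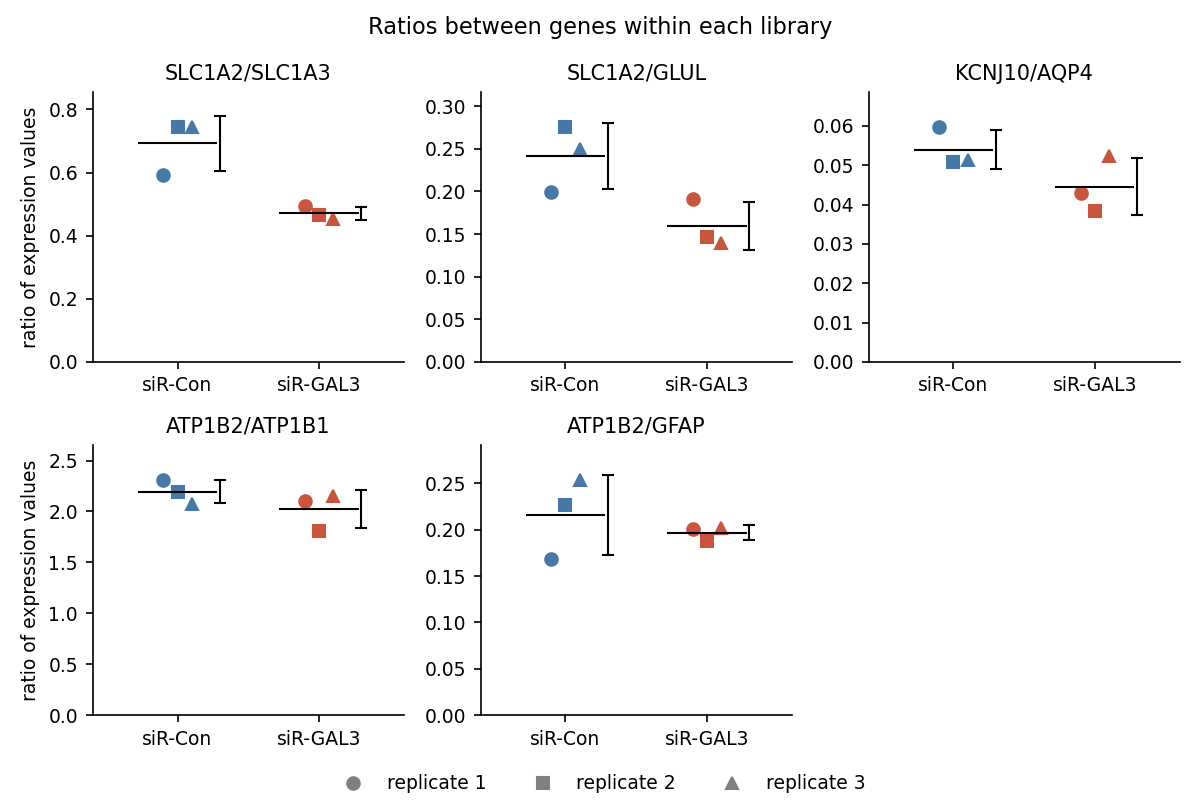
Ratio of the expression values of 2 genes within each library (linear axis from 0), siR-Con in blue and siR-GAL3 in red, with the group mean as a line and the SD as an error bar beside it. SLC1A2/SLC1A3 and SLC1A2/GLUL are lower in all siR-GAL3 libraries than in any siR-Con library, and ATP1B2/ATP1B1, ATP1B2/GFAP and KCNJ10/AQP4 overlap.

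Related genes were described by lists, each without the 9 members. Counts in these and in the cell type lists stand beside those of all genes. At an unadjusted limma p under 0.05, 4.25% of all genes were lower and 4.41% higher, and 10.3% were lower without overlap. The genes of a list were read in the same 6 libraries and can vary together, so their counts are not independent. The glutamate cycle list had 20 genes, of which 11 were tested, 6 higher and 5 lower, and the median was 0.00 in log2 units. At an unadjusted p under 0.05, 3 were lower and 0 higher. They were SLC7A11, the cystine and glutamate exchanger, with a log2 fold change of -0.60, pyruvate carboxylase PC, the astrocytic enzyme that refills the citric acid cycle, with -0.39, and glutamate dehydrogenase GLUD1 with -0.28. GLUD1 had expression values of 30.8, 29.1 and 30.3 in siR-Con and 24.9, 24.8 and 24.1 in siR-GAL3, without overlap. The limma adjusted p values were 0.458 for SLC7A11, 0.149 for PC and 0.262 for GLUD1.

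In the sodium pump and potassium list, 11 of 18 genes were tested, 3 higher and 8 lower. The median log2 fold change was -0.13 (0.03 when libraries were scaled to astrocyte identity genes). That scaling raises the log2 fold change of every gene, in all lists, by the same 0.16, so the scaled medians are not separate results. At an unadjusted p under 0.05, 2 genes of this list were lower. They included ATP1B1, the beta subunit more typical of neurons, which was 55.5, 65.9 and 69.6 in siR-Con and 50.03, 55.3 and 48.3 in siR-GAL3. The groups did not overlap, and ATP1B1 had a log2 fold change of -0.31 (limma adjusted p = 0.503). The ratio of ATP1B2 to ATP1B1 overlapped between the groups (means 2.19 and 2.02, exact permutation p = 0.3). SLC4A4, a sodium bicarbonate cotransporter, had a log2 fold change of -0.36 and an adjusted p of 0.589.

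In the endfoot complex and connexin list, 12 of 20 genes were tested, 1 higher and 11 lower, with a median of -0.10 (0.06 under the scaling to astrocyte identity genes, -0.18 without siR-GAL3 1 and -0.06 without siR-GAL3 2). HEPACAM, the cell adhesion protein GlialCAM, was lower (-0.21, unadjusted limma p of 0.0182) and GJB1, a connexin of oligodendrocytes, was higher (0.35, 0.00674). MLC1, the partner of HEPACAM, had a log2 fold change of -0.21 and an unadjusted p of 0.0681. In the GABA and glycine list, 8 of 13 genes were tested, 1 higher and 7 lower, with a median of -0.18 (-0.02 under the scaling to astrocyte identity genes and -0.11 without siR-GAL3 2). The glycine transporter SLC6A9 was lower (-0.26, unadjusted limma p of 0.00936), and the monoamine oxidase MAOB was higher (0.40, 4.00e-04).

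The astrocyte transcription factor list had 10 of 14 genes tested, all 10 lower with a median of -0.08 (0.08 under the scaling to astrocyte identity genes, -0.16 without siR-Con 1 and -0.05 without siR-GAL3 2), of which NFIB, a nuclear factor I family member, had an unadjusted p under 0.05 (-0.44). The next were HEY1 (-0.13) and PAX6 (-0.08), both with an unadjusted p above 0.05, and no gene of any list had a limma adjusted p under 0.05.

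General astrocyte markers were lower as well. All 15 genes of the astrocyte identity list were lower in siR-GAL3, 5 of them at an unadjusted p under 0.05, and the list median was -0.17 in log2 units (-0.10 without siR-GAL3 3). Their summed expression value was 1489 to 1681 in siR-Con and 1288 to 1443 in siR-GAL3. GFAP alone held 571 to 758 of this in siR-Con and 515 to 533 in siR-GAL3, so the sum rests largely on it. GFAP had a log2 fold change of -0.31, SPARCL1, a secreted matrix protein, -0.29, the acyl-CoA synthetase ACSBG1 -0.28 and the folate enzyme ALDH1L1 -0.26. Other genes of the list changed less: its quartiles were -0.24 and -0.09, and S100B had a log2 fold change of -0.08 with overlapping groups. The ratio of ATP1B2 to GFAP overlapped between the groups (means 0.216 and 0.197, exact permutation p = 0.5). Libraries were also scaled to the mean log2 level of these 15 genes, an alternative chosen after seeing the data. Every log2 fold change then rose by the same amount, and the median of all genes moved by 0.16. The list medians became 0.40 for microglia, 0.27 for oligodendrocyte and 0.25 for neuronal genes, and -0.26 for fibroblast and vessel genes. In that fit 3102 of 8495 genes had an unadjusted limma p under 0.05, in place of 736 without the scaling, so passing it does not set a member apart. ATP1B2 then had a log2 fold change of -0.27 and SLC6A11 of -0.23, with unadjusted limma p values of 0.0273 and 0.0440. SLC1A2 and KCNJ10 no longer had an unadjusted p under 0.05 (0.101 and 0.125).

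Markers of other cell types are given beside these values. All 11 microglia genes tested were higher in siR-GAL3, 5 of them at an unadjusted p under 0.05, with a median of 0.24 and a summed expression value of 105 to 126 in siR-Con and 133 to 151 in siR-GAL3. They included AIF1 (log2 fold change 0.57), PTPRC (0.43) and the complement gene C1QC (0.30). Of 5 fibroblast and vessel genes tested 4 were lower, 3 of them at an unadjusted p under 0.05 (COL3A1 -0.50, COL1A1 -0.42 and PDGFRB -0.30), with summed values of 44.0 to 51.4 and 33.9 to 39.0. Of 9 oligodendrocyte genes 6 were higher and 0 had an unadjusted p under 0.05, with sums of 1055 to 1126 and 1063 to 1385. Of 7 neuronal genes 5 were higher and STMN2 (0.33) had an unadjusted p under 0.05, with sums of 34.8 to 39.7 and 33.3 to 39.9. The part of these marker levels in the members' differences was not tested.

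**Figure D4:**
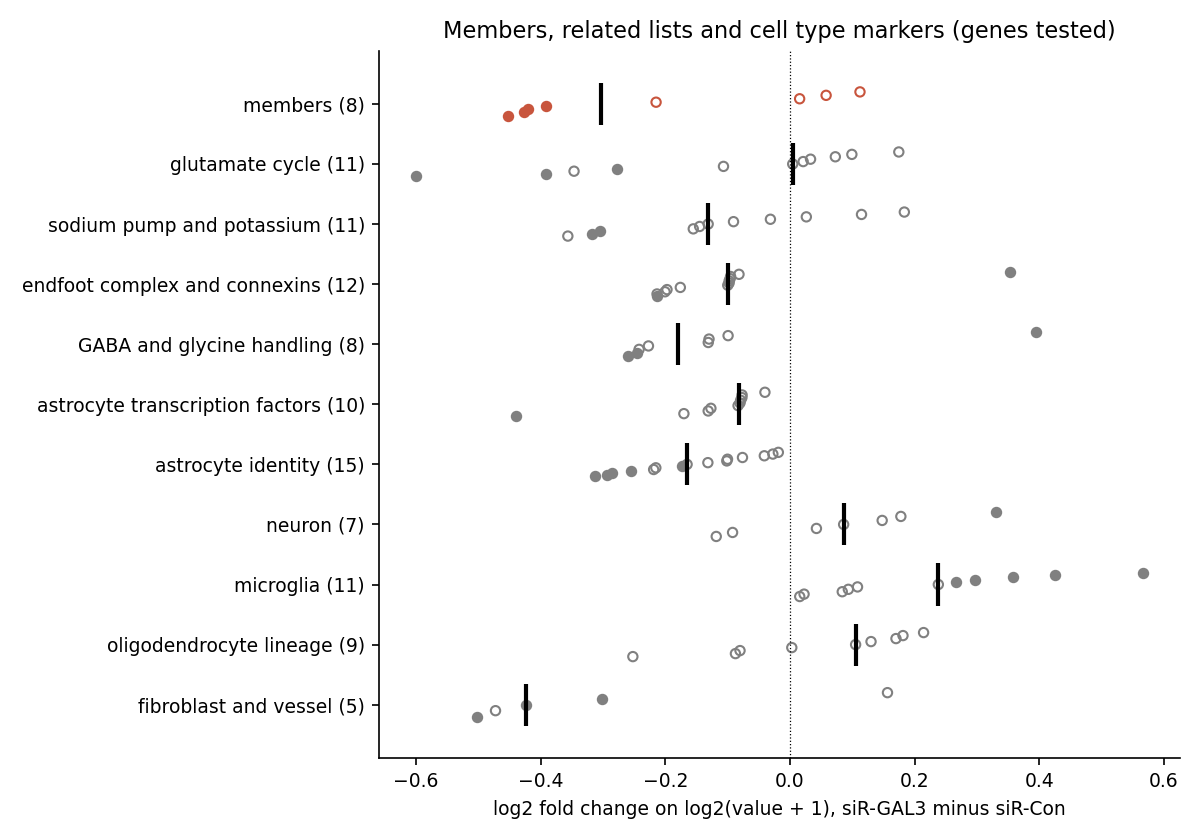
Log2 fold change of each gene tested (siR-GAL3 minus siR-Con, on log2(value + 1)) for the 8 members in red and for 10 lists in grey, with the number of genes tested in parentheses. Filled points had an unadjusted limma p under 0.05 and black bars are medians, which run from -0.42 for fibroblast and vessel genes to 0.24 for microglia genes, with -0.30 for the members.

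The mean profile of the members across libraries was 0.00, 0.14 and 0.18 in siR-Con and 0.03, -0.25 and -0.11 in siR-GAL3, in log2 units from each member's own mean. siR-GAL3 2 was the lowest, and it held the lowest value of 6 members. siR-GAL3 1 was above siR-Con 1, the other library of its set. Among 2592 genes with a mean expression value of at least 5, those nearest to this profile over the 6 libraries, by root mean square difference in log2 units, were SFXN5 (0.020), TMED5 (0.028), ATRX (0.030), EDNRB (0.036) and SGPL1 (0.037).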

How the data were processed

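RNA of 6 libraries of cultured rat spinal cord neurons was analysed. Per the study's methods and supplement, the authors aligned reads with STAR, counted them per gene with HTSeq and computed FPKM, and the matrix underwent removal of batch effects, standardization and a correction within groups, with tools not given in the sources used here. The deposited values are therefore other than FPKM: 3.86% of 105888 values were below 0. The supplement names selection of polyadenylated RNA and the labels ribosomal depletion. The genome build is not given in the sources used here.

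Values below 0 were set to 0 and log2(value + 1) was taken. Genes whose mean reached 1, 8495 in all, entered a fit with limma 3.58.1 (R 4.3.3) with an intensity trend, siR-GAL3 against siR-Con. Benjamini-Hochberg adjustment was over all of them. The fit was run on simulated data with independent noise and shifts larger than any member's change. That run checked the code and cannot show how the fit behaves with values shared between libraries. The plan had assumed FPKM, and the same test was kept. The pseudocount shrinks the fold changes of genes with low values. Libraries that shared over 1000 equal values were called a set. The members and lists were chosen with earlier results of these data known. Genes named were the members, the targeted gene, defining cell type markers, the 3 smallest p-values and the largest changes of each list, and the 5 genes nearest to the members' mean profile. A few genes that this rule names are not reported here. Alternatives changed the pseudocount, filter, scaling, trend, block and libraries. Promoters came from RefSeq (GRCr8), which matched 9 of 9 members.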

Additional observations from a re-analysis of the deposited data

How the results depend on the processing

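The 4 members with an unadjusted limma p under 0.05 became 2 of 6 fitted with a minimum mean of 10, which leaves out KCNJ10 and SLC6A11, and 2 under scaling to astrocyte identity genes, an alternative chosen after seeing the data. Over all genes, 121 of 1120 had such a p with the minimum mean of 10 and 3102 of 8495 under the scaling. The members' median log2 fold change of -0.30 was -0.10 and -0.14 under the same alternatives, the latter through a shift equal for every gene. The 27 genes past the study's criteria were 5 with a minimum mean of 10, 15 without genes holding a value below 0, and 316 of 17648 on values that were not log-transformed, 4 members among them. In that fit the limit of 1 is a difference in expression value and genes with a low mean are kept. Leaving out 1 library at a time turned the direction of GJA1 (-0.095 to 0.090) and SLC1A3 (-0.032 to 0.16). ATP1B2 ranged from -0.48 to -0.40, SLC6A11 from -0.43 to -0.35 and KCNJ10 from -0.52 to -0.27, each with an unadjusted p under 0.05 in all 6 fits. Those fits share most of their libraries, and from 344 to 1388 of 8495 genes had such a p in them. GLUL ranged from 0.04 to 0.17 and AQP4 from -0.35 to -0.14. LGALS3 ranged from -3.88 without siR-GAL3 2 to -1.35 without siR-GAL3 1, and was -4.03 (unadjusted p of 0.0894) with a pseudocount of 0.1.

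The replicate numbers did not pair the libraries: same-numbered deviations correlated at -0.17, -0.070 and 0.044, and 1 of 6 libraries correlated best with its own number. With a replicate block, 4 members had an unadjusted p under 0.05, and over all genes 543 in place of 736 did and 6 in place of 0 had an adjusted p under 0.05. Depth is unknown, and 3 libraries per group, corrected within groups by the authors, limit what the spread shows.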
